A study of Mus musculus with 46 samples.

Results

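The integrated stress response genes described here are Atf4, Atf5, Ddit3, Trib3, Chac1, Asns, Sesn2, Psat1, Phgdh and Mthfd2, 10 of the 43346 genes in the deposited tables, found by their mouse Ensembl identifiers. RNA was sequenced from striatum and cerebral cortex of 23 mice on a C57BL6/J background, 1 library per tissue and mouse, 46 libraries in all. In each tissue 8 libraries came from Wild Type (WT) mice given vehicle, 7 from R6/2 mice given vehicle and 8 from R6/2 mice given CHDI-00340246 at 30 mg/kg, all by mouth and twice-daily, with both sexes in every group and tissue taken at 12 weeks of age. Dosing ran from week 4 to week 12, and no WT mouse received the compound. R6/2 mice carry Tg(HDexon1)62Gpb, a transgene with exon 1 of the human huntingtin gene and an expanded CAG repeat, and are a fast model of Huntington's disease in which only a fragment of the human protein is made. CHDI-00340246 inhibits kynurenine 3-monooxygenase (KMO), an enzyme of tryptophan breakdown. The comparisons address whether stress response transcripts differ between R6/2 and WT brain, and between treated and vehicle R6/2 brain.

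The integrated stress response starts when a kinase phosphorylates the translation initiation factor eIF2 on its alpha subunit. Protein synthesis then slows in general, while the mRNA of the transcription factor ATF4 is translated more, owing to upstream open reading frames. ATF4 raises transcription of genes for amino acid synthesis, amino acid uptake and tRNA charging, and of further regulators such as CHOP, the product of Ddit3. Because ATF4 is controlled largely at translation, the level of its mRNA is not a direct readout of its protein.

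Among the 10 genes, Atf4, Atf5 and Ddit3 encode basic leucine zipper transcription factors, and Trib3 encodes a pseudokinase that binds ATF4 and CHOP. Chac1 encodes an enzyme that degrades glutathione. Asns encodes asparagine synthetase, and Phgdh and Psat1 encode the first enzymes of serine synthesis from glycolysis, phosphoglycerate dehydrogenase and phosphoserine aminotransferase. Mthfd2 encodes a mitochondrial folate enzyme that carries one-carbon units derived from serine. Sesn2 encodes a sestrin that senses leucine and restrains the mTORC1 kinase complex. In mm10 coordinates the regulators lie at chr15:80255184-80257541 (Atf4, plus strand), chr7:44812256-44816658 (Atf5, minus strand), chr10:127290774-127296288 (Ddit3, plus strand) and chr2:152337422-152344032 (Trib3, minus strand). Chac1 lies at chr2:119351229-119354381 on the plus strand, Asns at chr6:7675169-7693254 on the minus strand and Sesn2 at chr4:132492032-132510501 on the minus strand. Psat1 (chr19:15904678-15947337), Phgdh (chr3:98313170-98339990) and Mthfd2 (chr6:83305691-83325908) are on the minus strand.

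ATF4 with a C/EBP partner binds a composite element, and its letters were searched on both strands of the RefSeq promoter windows (GRCm38.p6, the mm10 assembly), 250 bases before to 50 bases after each annotated start. The motif TGATGNAA, called CARE here, was searched first. A looser form, TGNTGCAA, was added after the sequences had been seen, and the letters TGATGCAA satisfy both. All 10 genes matched the table, with 12 windows. The CARE letters were in a window of 3 genes, the looser form in 4, and either form in 5, namely Trib3, Chac1, Asns, Sesn2 and Psat1. Of all 27025 genes in the table, 4.51% held CARE in a window, 3.72% the looser form and 7.07% either; of its 32851 windows the shares were 3.97%, 3.22% and 6.20%. The stretches around these matches are shown because the windows of Atf4, Atf5, Ddit3, Phgdh and Mthfd2 held neither form, so that the values below can be read with and without a match. Each is written 5′ to 3′ on the strand of its gene, with the matched letters in capitals.
Trib3, chr2:152344061-152344123, minus strand: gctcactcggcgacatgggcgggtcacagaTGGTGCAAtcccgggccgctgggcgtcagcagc
Chac1, chr2:119351019-119351086, plus strand: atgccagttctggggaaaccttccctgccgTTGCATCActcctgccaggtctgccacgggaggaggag
Asns, chr6:7693210-7693262, minus strand: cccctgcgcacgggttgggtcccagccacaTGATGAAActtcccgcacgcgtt
Sesn2, chr4:132510637-132510704, minus strand: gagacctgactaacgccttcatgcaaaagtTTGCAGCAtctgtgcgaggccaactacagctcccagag
Psat1, chr19:15925158-15925225, minus strand: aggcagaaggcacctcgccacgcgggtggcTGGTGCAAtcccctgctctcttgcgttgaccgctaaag
The match in Asns lies from -23 to -16 relative to the annotated start, that in Trib3 from -33 to -26, that in Psat1 from -136 to -129, that in Chac1 from -193 to -186 and that in Sesn2 from -218 to -211. Chac1 and Sesn2 carry the letters on the strand opposite to the gene. Trib3 held a second match after its start, TTACATCA, which reads TGATGTAA on the other strand. This second match is the only CARE match of Trib3. The printed stretch of Asns holds CARE, that of Chac1 holds letters of both forms, and those of Trib3, Sesn2 and Psat1 hold the looser form only. The RefSeq starts of Psat1 and Mthfd2 lie well inside the longer gene spans of the GENCODE annotation, whose own starts the windows of these 2 genes do not cover. A match is only a run of letters, and its absence from a window says nothing about the factor.

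Total estimated counts per library ranged from 30385125 to 36040325 in striatum and from 31792321 to 37825600 in cortex, so all 10 genes passed the filter on low counts in both tissues. Trib3 was the least abundant, with 18 to 88 estimated counts per striatal library and 8 to 30 per cortical library, and its values carry the largest counting error. Tissue labels were checked with marker lists. The summed level of 12 striatal projection neuron markers was 8313 to 10980 CPM (counts scaled to library size with TMM factors) in WT striatum against 573 to 780 CPM in WT cortex. The 10 cortical projection neuron markers summed to 2058 to 2319 CPM in WT cortex and 164 to 277 CPM in WT striatum. One inhibitor-treated striatal library, replicate 5, stood apart, with 1168 CPM of striatal projection neuron markers against 3092 to 4250 CPM in the other treated libraries, so treated striatum is given with and without it. Library descriptions also carry a tag from L1 to L8 whose meaning is not given. In cortex the WT libraries bear only L7 and L8 and the treated libraries only L5 and L6, while WT striatum and WT cortex share no tag.

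Levels of different genes were compared on the FPKM scale, on which fragments are scaled to gene length and library depth. In WT striatum Psat1 had the highest mean level, 68.2 FPKM, followed by Phgdh at 56.7, Atf4 at 43.0, Asns at 36.1 and Ddit3 at 27.0 FPKM. Atf5 followed at a mean of 7.54 FPKM, Mthfd2 at 3.20, Sesn2 at 2.30, Chac1 at 2.10 and Trib3 at 1.004 FPKM. The ranges of neighbours in this order overlapped except between Asns and Ddit3, Ddit3 and Atf5, Atf5 and Mthfd2, and Chac1 and Trib3. In WT cortex Atf4 led with a mean of 71.7 FPKM, apart from Psat1 at 49.9 FPKM, and Trib3 was again lowest at 0.288 FPKM. Vehicle R6/2 striatum kept Psat1 first, at 89.0 FPKM, apart from Phgdh at 49.1 FPKM, whereas the ranges of Phgdh, Asns and Atf4 overlapped as neighbours.

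**Figure D1:**
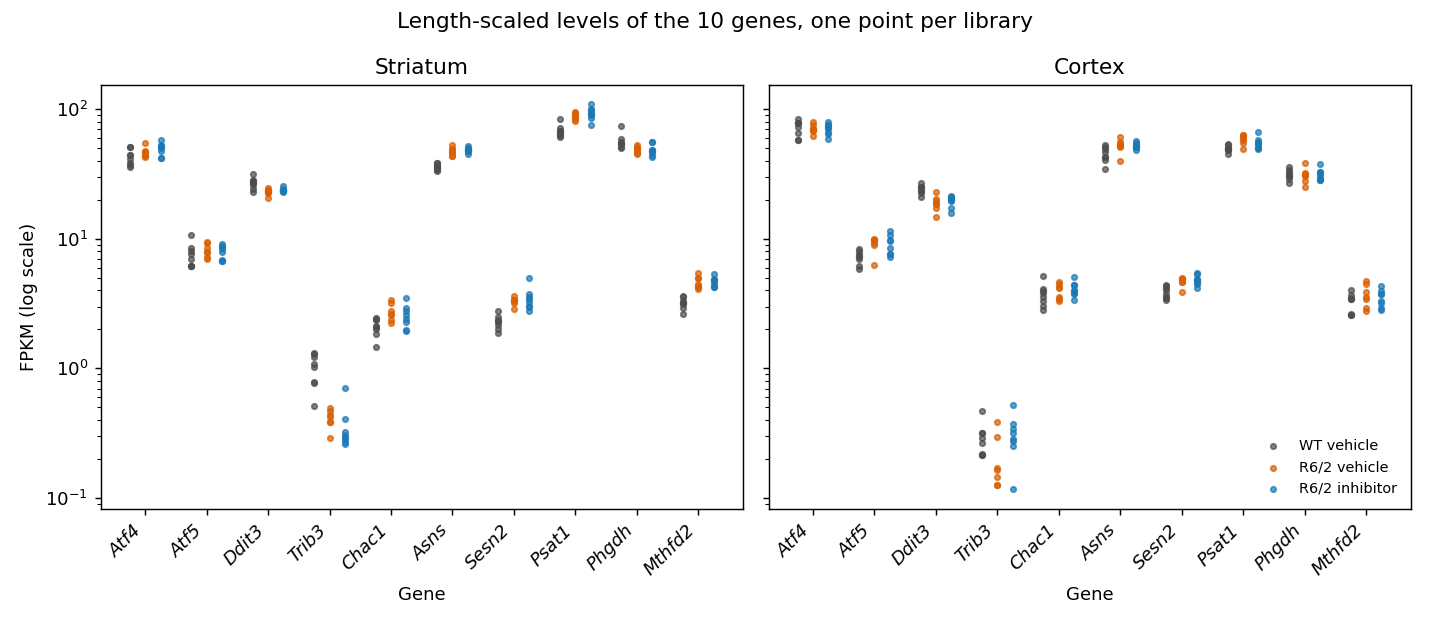
FPKM of the 10 genes on a log axis in striatum (left) and cortex (right), 1 point per library, coloured by group. Trib3 lies below all other genes, and in striatum its WT libraries lie above the vehicle R6/2 libraries.

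In WT mice the striatum and cortex differed in the levels of 8 of the 10 transcripts. Striatum held more Trib3, Phgdh, Psat1 and Ddit3 and less Chac1, Sesn2, Atf4 and Asns than cortex of the same 8 mice. Trib3 ranged from 1.09 to 2.81 CPM in WT striatum, with a median of 2.27, and from 0.455 to 0.890 CPM in WT cortex, with a median of 0.587. The 2 ranges did not overlap, and the log2 fold change was 1.77 ± 0.15 (SE), a 3.40-fold higher level in striatum (adjusted p = 7.5e-07). The WT ranges of Phgdh, Psat1, Chac1, Sesn2 and Atf4 were also apart between the tissues. The share of all genes with ranges apart was not computed for this comparison, so such a gap is not read as particular to Trib3. Phgdh was 0.81 ± 0.06 and Psat1 0.43 ± 0.05 higher on the log2 scale, while Chac1 was lower by -0.85 ± 0.08, Sesn2 by -0.79 ± 0.07, Atf4 by -0.76 ± 0.05 and Asns by -0.34 ± 0.05. Ddit3 was 0.13 ± 0.05 higher (adjusted p = 0.0285), a call lost without the animal block (log2 fold change 0.14, adjusted p = 0.0713). Atf5 and Mthfd2 did not pass the test. Over all 17051 genes tested 62.8% were called, 31.2% higher and 31.6% lower in striatum, and 4 higher and 4 lower of 10 is not read as a property of these genes. Tissue and library tag cannot be told apart in this comparison.

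**Figure D2:**
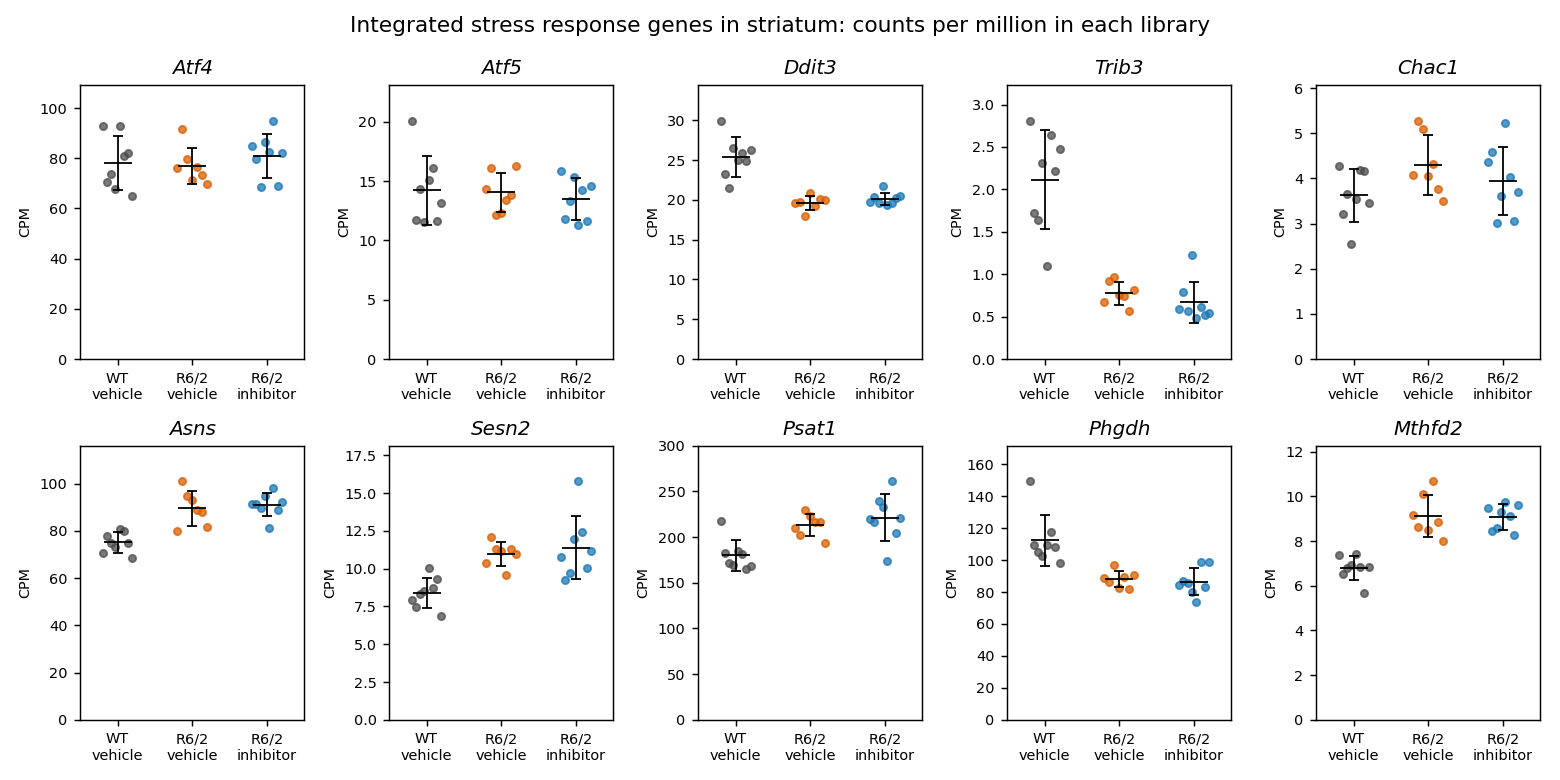
CPM of each gene in every striatal library by group, with the mean and SD as a bar with caps. Ddit3, Trib3 and Phgdh are lower and Mthfd2 is higher in every vehicle R6/2 library than in any WT library.

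In striatum 7 of the 10 transcripts differed between vehicle R6/2 and WT mice, and they did not move one way. The amino acid and one-carbon genes Mthfd2, Asns and Psat1 and the sestrin gene Sesn2 rose, and Trib3, Ddit3 and Phgdh fell. Atf4, Atf5 and Chac1 did not pass the test. Across the 17394 genes tested in striatum 50.2% were called at an adjusted p under 0.05, 25.8% higher and 24.5% lower, by edgeR's quasi-likelihood test with Benjamini-Hochberg adjustment. Set against these shares, 4 higher and 3 lower of 10 is not a result about the 10 genes as a group, and the description rests on the single genes. The median log2 fold change of the 10 genes was 0.13, against 0.00 over all genes tested. The test called 4480 genes higher and 4255 lower, whereas on log2(FPKM + 0.1) the split was 6933 higher and 2722 lower, with the median of all genes shifted by 0.12. No called member changed direction on the FPKM scale. Of 86 markers of the cell types in brain and blood, 57 were lower and 2 higher, among them 11 of 12 striatal projection neuron markers, which fell with a median of -1.36 and summed to 3553 to 4002 CPM in vehicle R6/2 striatum. Their part in the values of the 10 genes was not tested.

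Trib3 had the largest fold change of the 10 genes. In WT striatum it ranged from 1.09 to 2.81 CPM with a median of 2.27, and in vehicle R6/2 striatum from 0.572 to 0.962 CPM with a median of 0.751. Every vehicle R6/2 library was below every WT library. The fitted level was 2.70-fold lower (log2 fold change -1.43 ± 0.21, adjusted p = 5.0e-06). Among all genes tested 21.4% had CPM ranges that did not overlap between these groups, and 4 of the 10 members did. Ddit3, whose product CHOP is a regulator linked to prolonged stress, ranged from 21.5 to 29.9 CPM with a median of 25.5 in WT and from 18.0 to 20.9 CPM with a median of 19.8 in vehicle R6/2. The ranges were apart, with a log2 fold change of -0.36 ± 0.05 (adjusted p = 7.7e-06). Exons of Ddit3 share 68 bases, 3.97% of their length, with Mars on the opposite strand, and strand use in counting is not given.

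Phgdh and Psat1 encode successive enzymes of the same pathway and moved in opposite directions. Phgdh fell from 97.9 to 149 CPM in WT, with a median of 109, to 82.0 to 97.0 CPM in vehicle R6/2, with a median of 89.1. The ranges were apart, although by a small margin, and the log2 fold change was -0.32 ± 0.07 (adjusted p = 0.00026). Psat1 ranged from 165 to 218 CPM with a median of 177 in WT and from 194 to 230 CPM with a median of 216 in vehicle R6/2. These ranges overlapped, since only 2 of 7 vehicle R6/2 libraries exceeded the highest WT library, and the log2 fold change was 0.26 ± 0.07 (adjusted p = 0.0023). The overlap came from WT replicate 1, as the other WT libraries held 165 to 184 CPM of Psat1, below every vehicle R6/2 library. That library also set the top of the WT range of Phgdh, with the others at 98.0 to 118 CPM. Phgdh has processed copies with over 90% identity, of which the most counted in the table, Gm6756, had a mean of 17.0 estimated counts against 2655.1 for Phgdh. In brain the serine synthesis enzymes are known to be abundant in astrocytes. Of 12 astrocyte markers, 10 were lower and 1 higher in vehicle R6/2 striatum, with a median log2 fold change of -0.48, and their summed level was 3161 to 4177 CPM against 5432 to 6605 CPM in WT. Their part in the changes of Phgdh and Psat1 was not tested, and in bulk tissue fewer cells of a type and less RNA per cell cannot be told apart.

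Mthfd2 rose most among the enzymes. It ranged from 5.68 to 7.43 CPM with a median of 6.85 in WT striatum and from 8.00 to 10.7 CPM with a median of 8.86 in vehicle R6/2 striatum. All 7 vehicle R6/2 libraries were above all 8 WT libraries, a 1.35-fold higher level (log2 fold change 0.44 ± 0.07, adjusted p = 1.3e-05). Sesn2 ranged from 6.88 to 10.0 CPM with a median of 8.43 in WT and from 9.62 to 12.1 CPM with a median of 11.2 in vehicle R6/2. Of 7 vehicle R6/2 libraries 6 exceeded the highest WT library, and the log2 fold change was 0.40 ± 0.10 (adjusted p = 0.0016). Asns ranged from 68.5 to 80.8 CPM with a median of 74.9 in WT and from 79.8 to 101 CPM with a median of 88.7 in vehicle R6/2. Again 6 of 7 libraries were above the WT range, with a log2 fold change of 0.27 ± 0.05 (adjusted p = 7.5e-05). These changes of 1.20-fold to 1.35-fold were smaller than that of Trib3.

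Atf4 had a log2 fold change of -0.01 ± 0.08 in striatum, with 65.0 to 92.9 CPM in WT and 69.9 to 91.6 CPM in vehicle R6/2. Atf5 was at 0.00 ± 0.11 on the log2 scale, with 11.5 to 20.1 CPM in WT and 12.2 to 16.3 CPM in vehicle R6/2. Both ranges overlapped throughout, and the 95% interval of the log2 fold change was -0.19 to 0.16 for Atf4 and -0.24 to 0.24 for Atf5, which leaves room for differences of that size. Chac1 had a log2 fold change of 0.25 ± 0.13 (adjusted p = 0.11), with 2.55 to 4.27 CPM in WT and 3.50 to 5.28 CPM in vehicle R6/2. It passed with the library tag as a covariate (0.34, adjusted p = 0.0318) and on log2(FPKM + 0.1) (0.37, of which 0.24 lay above the median of all genes). The 7 called genes kept their calls and directions under the same covariate, and within shared tags alone Trib3 was at -1.25, Ddit3 at -0.36, Phgdh at -0.34, Mthfd2 at 0.39, Sesn2 at 0.38, Asns at 0.24 and Psat1 at 0.22 on the log2 scale. Of the 5 genes with motif letters printed above, Asns, Sesn2 and Psat1 rose, Trib3 fell and Chac1 did not pass. Sesn2 and Psat1 are among them only by the looser form, which was added after the sequences had been seen. Of the 3 genes with CARE, Asns rose, Trib3 fell and Chac1 did not pass, and the CARE match of Trib3 is the one after its start. Of the 5 genes with neither form, Ddit3 and Phgdh fell, Mthfd2 rose, and Atf4 and Atf5 did not pass.

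**Figure D3:**
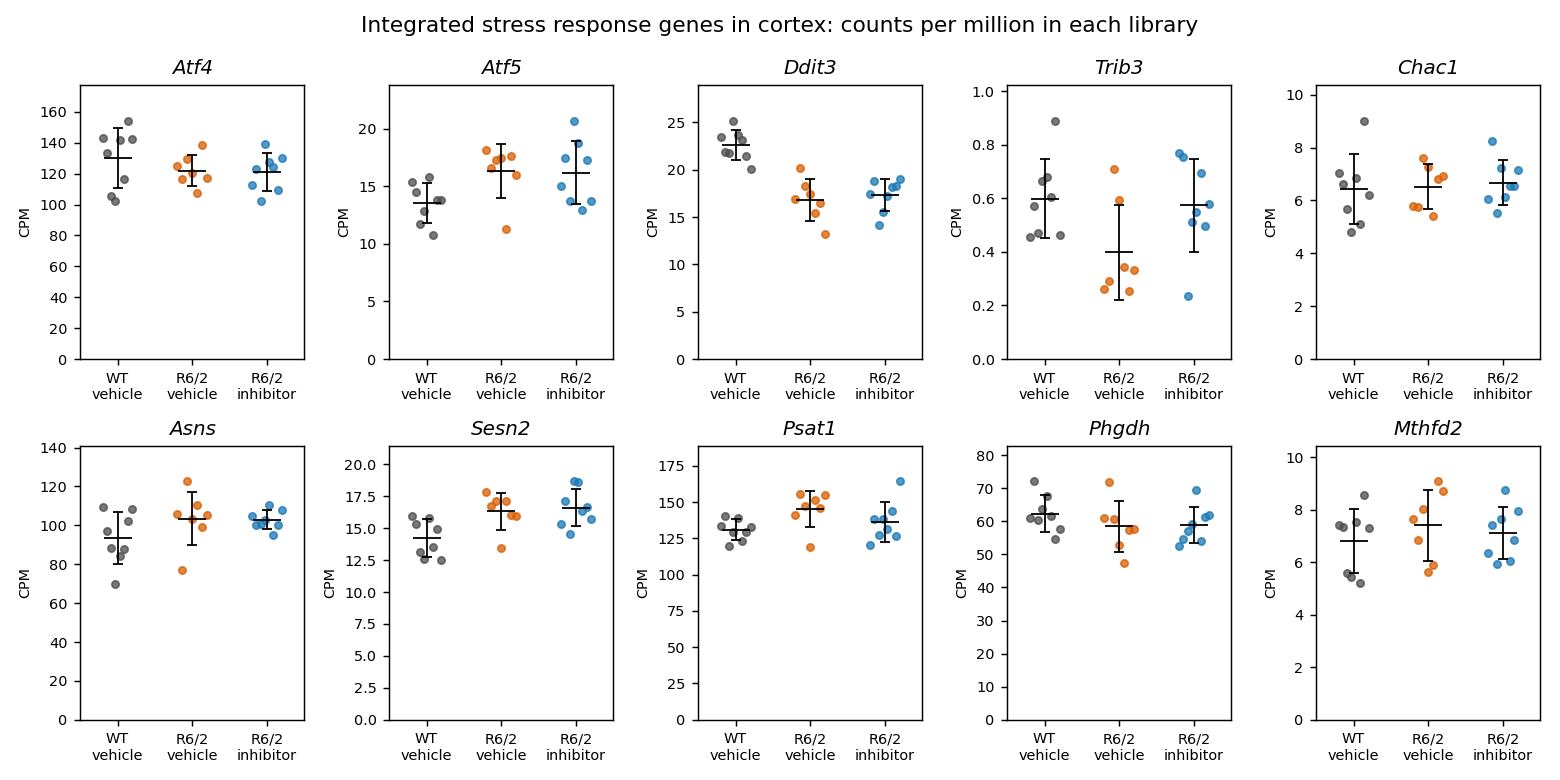
CPM of each gene in every cortical library by group, with the mean and SD as a bar with caps. Ddit3 is lower in the R6/2 groups, with 6 of 7 vehicle R6/2 libraries below the lowest WT library.

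In cortex 2 of the 10 transcripts passed the test between vehicle R6/2 and WT mice, Ddit3 lower and Sesn2 higher. Of 17484 genes tested 44.1% were called, 21.5% higher and 22.6% lower, against 2 of the 10 members, and 16.3% of all genes had CPM ranges that did not overlap, against 0 of the 10 members. The median log2 fold change of the 10 genes was 0.07 against 0.00 over all genes. On log2(FPKM + 0.1) the split of calls over all genes was 5451 higher and 2988 lower, against 3753 and 3959 in the count test. In cortex 39 of the 86 markers were lower and 1 higher, 9 of 12 astrocyte markers fell and none rose in the count test, with summed levels of 3318 to 4764 CPM against 5578 to 7877 CPM in WT, and their part in the values below was not tested.

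Ddit3 ranged from 20.1 to 25.2 CPM with a median of 22.5 in WT cortex and from 13.2 to 20.2 CPM with a median of 17.0 in vehicle R6/2 cortex. All but 1 vehicle R6/2 library lay below the WT range, and the log2 fold change was -0.44 ± 0.08 (adjusted p = 9.2e-05). With the library tag as a covariate it was -0.49, and within shared tags -0.53. Sesn2 ranged from 12.5 to 15.99 CPM with a median of 14.2 in WT and from 13.4 to 17.8 CPM with a median of 16.7 in vehicle R6/2. Its log2 fold change was 0.19 ± 0.07 (adjusted p = 0.0399), with 5 of 7 libraries above the WT range. That call was lost with the tag as a covariate (0.12, adjusted p = 0.34), within shared tags (0.14, adjusted p = 0.22), and without any 1 of WT replicates 3, 4, 6 and 8 or vehicle R6/2 replicates 1, 2, 3 and 5, with adjusted p from 0.0620 to 0.0856 there.

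Trib3 in cortex ranged from 0.455 to 0.890 CPM in WT, with a median of 0.587, and from 0.255 to 0.709 CPM in vehicle R6/2, with a median of 0.333. The ranges overlapped, although 5 of 7 vehicle R6/2 libraries were below the lowest WT library, and the log2 fold change of -0.61 ± 0.26 did not pass (adjusted p = 0.0617). It passed without vehicle R6/2 replicate 3 (adjusted p = 0.0132) or 4 (adjusted p = 0.0343), WT replicate 1 (adjusted p = 0.0499) or treated replicate 3 (adjusted p = 0.0326). Atf5 had a log2 fold change of 0.26 ± 0.11 (adjusted p = 0.0639), with 6 of 7 vehicle R6/2 libraries between 16.03 and 18.2 CPM and the remaining one at 11.3 CPM, against 10.8 to 15.8 CPM in WT. Without that library, replicate 5, Atf5 passed at 0.33 (adjusted p = 0.0131), and it also passed without WT replicate 1, WT replicate 5 or treated replicate 4. With all libraries Atf5 passed the DESeq2 Wald test (0.27, adjusted p = 0.0425). It also passed in limma on log2(FPKM + 0.1) (0.34, adjusted p = 0.0124), where the median of all genes was 0.08. Psat1 was at 0.14 ± 0.06 (adjusted p = 0.0732) and passed without vehicle R6/2 replicate 4 (0.18, adjusted p = 0.0147) or treated replicate 8 (0.13, adjusted p = 0.0470). With all libraries Psat1 passed the DESeq2 Wald test (0.15, adjusted p = 0.04855) and limma on log2(FPKM + 0.1) (0.23, adjusted p = 0.0028). Asns was at 0.13 ± 0.08 (adjusted p = 0.23) and passed without vehicle R6/2 replicate 2 (0.19, adjusted p = 0.0463). With all libraries Asns passed in limma on log2(FPKM + 0.1) (0.21, adjusted p = 0.0360). Phgdh was at -0.10 ± 0.07 (adjusted p = 0.26) and passed with the tag as a covariate (-0.18, adjusted p = 0.0445) and within shared tags (-0.21, adjusted p = 0.0272). Atf4, at -0.10 ± 0.08, Chac1, at 0.02 ± 0.12, and Mthfd2, at 0.12 ± 0.11 on the log2 scale, did not pass in any of these fits.

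The R6/2 effect was compared between tissues with the animal as a block. Of the 10 genes Trib3 differed, with a log2 fold change -0.79 ± 0.25 lower in striatum than in cortex (adjusted p = 0.0335), while over all 18122 genes tested 15.8% were called, 7.06% higher and 8.74% lower. The call was lost without the filter on low counts (adjusted p = 0.0560) and without the animal block (adjusted p = 0.0910). The Phgdh difference was -0.24 ± 0.09 and did not pass (adjusted p = 0.0664). Mthfd2 had a difference of 0.30 ± 0.13 (adjusted p = 0.13) and Atf5 of -0.26 ± 0.11 (adjusted p = 0.12), and none of the other 6 genes passed either. A call in striatum that is missing in cortex is therefore not a shown difference for Asns, Psat1, Phgdh or Mthfd2.

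**Figure D4:**
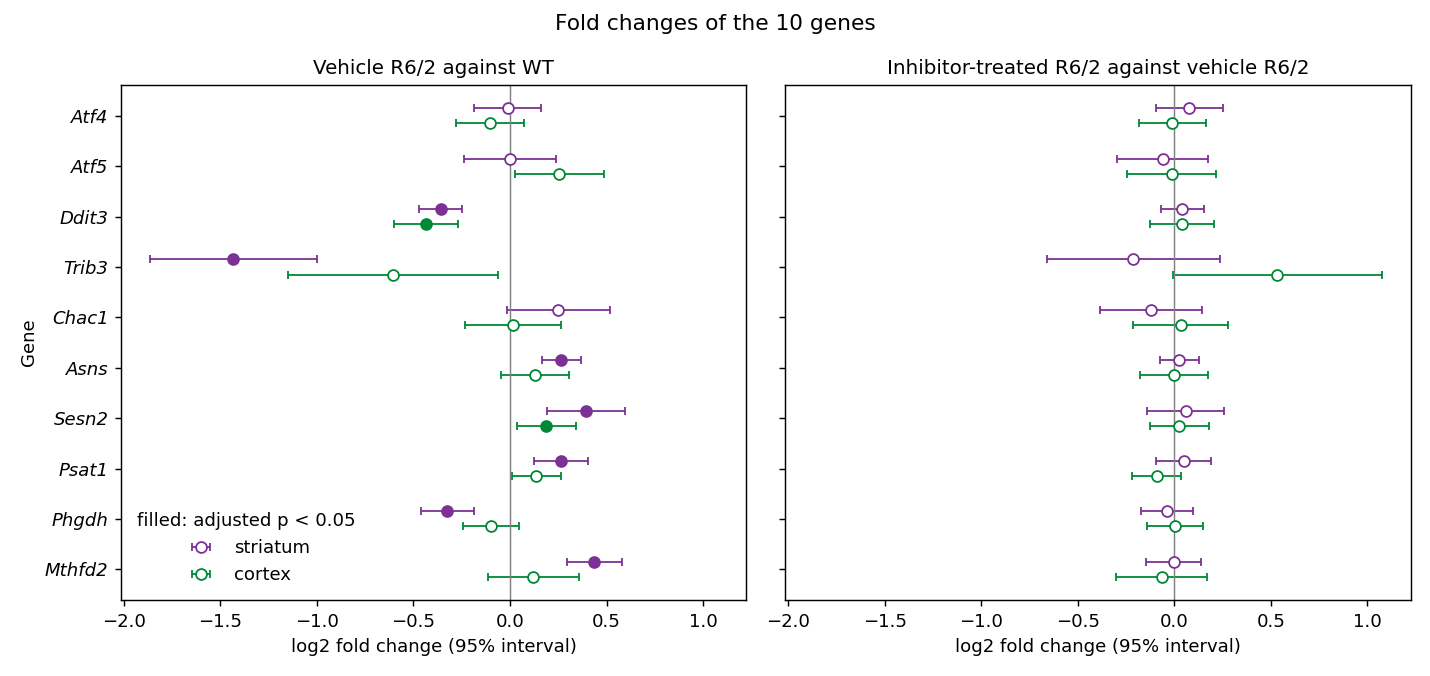
Log2 fold changes with 95% intervals for the 10 genes, vehicle R6/2 against WT (left) and inhibitor-treated against vehicle R6/2 (right), in striatum and cortex; filled points passed at an adjusted p under 0.05. All points on the right are open, and Trib3 has the widest intervals.

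None of the 10 transcripts passed the test between inhibitor-treated and vehicle R6/2 mice in either tissue. In striatum the log2 fold changes of treated against vehicle R6/2 ran from -0.21 (Trib3) to 0.08 (Atf4). In cortex they ran from -0.09 (Psat1) to 0.53 (Trib3). By edgeR's quasi-likelihood test 0 of 17394 genes in striatum and 0 of 17484 in cortex were called, a share of 0% in both, with 464 and 1015 genes at an unadjusted p under 0.05 and 0 of the 10 members among them. DESeq2 and limma on log2(FPKM + 0.1) also called 0 genes in either tissue, with 467 and 436 at an unadjusted p under 0.05 in striatum and 1065 and 1001 in cortex. The limma fit had 1 member among these, Trib3 in cortex (unadjusted p = 0.0341, adjusted p = 0.84). Without the treated striatal replicate 5 the members ran from -0.19 to 0.09 in striatum, none called.

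The 95% interval of this difference varied among the members. For Ddit3 it ran from -0.07 to 0.15 in striatum and from -0.12 to 0.21 in cortex on the log2 scale. Asns had an interval of -0.07 to 0.13 in striatum and -0.18 to 0.17 in cortex. For Mthfd2 the interval was -0.14 to 0.14 in striatum and -0.30 to 0.17 in cortex, and for Sesn2 it was -0.14 to 0.26 and -0.13 to 0.18. The intervals of Chac1, at -0.38 to 0.15 in striatum and -0.21 to 0.28 in cortex, and of Atf5, at -0.30 to 0.18 and -0.24 to 0.22, were wide enough to hold differences as large as several of the R6/2 effects above. In striatum Atf4 had -0.10 to 0.25, Psat1 -0.09 to 0.19 and Phgdh -0.175 to 0.10. The intervals of Ddit3 and Mthfd2 in cortex and of Sesn2, Atf4 and Psat1 in striatum also held differences as large as the cortical R6/2 effect on Sesn2, 0.19. Intervals of Atf4, Psat1 and Phgdh in cortex are not listed here, so no statement is made on them. Trib3 had the widest, at -0.66 to 0.24 in striatum and -0.01 to 1.08 in cortex. In cortex Trib3 ranged from 0.237 to 0.771 CPM in treated mice, with a median of 0.564, against 0.255 to 0.709 CPM with a median of 0.333 in vehicle R6/2 mice. The ranges overlapped, with 2 of 8 treated libraries above the vehicle range, and the log2 fold change of 0.53 ± 0.26 did not pass (adjusted p = 0.84). The inhibitor effect on Trib3 was -0.79 ± 0.26 lower in striatum than in cortex at an unadjusted p of 0.0057, which did not pass adjustment (adjusted p = 0.71); over all genes 0 of 18122 were called, with 1258 at an unadjusted p under 0.05 in edgeR and 0 called with 1234 in limma.

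Treated R6/2 striatum differed from WT in the genes that differed in vehicle R6/2 striatum, and both comparisons share the WT libraries. Mthfd2 was at 0.43 ± 0.07, Sesn2 at 0.45 ± 0.09, Psat1 at 0.31 ± 0.06 and Asns at 0.29 ± 0.05 on the log2 scale, while Trib3 was at -1.65 ± 0.20, Phgdh at -0.36 ± 0.06 and Ddit3 at -0.32 ± 0.05. All 7 passed, 4 higher and 3 lower, where 52.9% of all genes were called, 27.8% higher and 25.2% lower. Atf4 was at 0.07 ± 0.08 and did not pass (adjusted p = 0.51). In limma on log2(FPKM + 0.1) it passed at 0.21 (adjusted p = 0.0288), of which 0.06 lay above the median of all genes. Treated Trib3 ranged from 0.486 to 1.23 CPM with a median of 0.581, and 7 of 8 treated libraries lay below the WT range. Treated Mthfd2 ranged from 8.28 to 9.75 CPM with a median of 9.22 and treated Asns from 81.3 to 98.1 CPM with a median of 91.4, both above every WT library. Only these 2 of the 10 members had ranges apart, and the share of all genes with ranges apart was not computed for this comparison. Without the treated striatal replicate 5 the same counts of 4 higher and 3 lower were found, with Trib3 at -1.58. That library had the highest Sesn2 of its group, 15.8 CPM, and the lowest Psat1, 174 CPM, and Phgdh, 73.5 CPM.

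In cortex 2 of the 10 genes differed between treated R6/2 and WT mice, Ddit3 at -0.39 ± 0.08 (adjusted p = 0.00016) and Sesn2 at 0.21 ± 0.07 (adjusted p = 0.016). Over all genes 46.7% were called, 22.8% higher and 23.9% lower. Treated Ddit3 ranged from 14.2 to 18.99 CPM with a median of 17.8, and all 8 libraries lay below every WT library. Only this 1 of the 10 members had ranges apart, and the share over all genes was not computed for this comparison either. Because the treated and WT cortical libraries share no tag, the tag and the group can be separated only through the vehicle libraries; with the tag as a covariate Ddit3 was at -0.56 (adjusted p = 0.0019), Sesn2 at 0.06 (adjusted p = 0.79) and Phgdh passed at -0.32 (adjusted p = 0.0258). Atf5 was at 0.24 ± 0.11 and did not pass (adjusted p = 0.0654), but passed with the DESeq2 Wald test (0.25, adjusted p = 0.0474), on log2(FPKM + 0.1) (0.32, adjusted p = 0.0121), and without any 1 of treated replicates 3, 6 and 8, WT replicates 1 and 5 or vehicle R6/2 replicate 5. Trib3 was at -0.07 ± 0.24 against WT in treated cortex.

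No difference between the sexes passed the test. In the 4 tests of females against males, of the R6/2 effect and of the inhibitor effect in each tissue, 0 of the 10 members passed and 0% of all genes were called by edgeR, with 773 and 761 genes at an unadjusted p under 0.05 in striatum and 1097 and 2355 in cortex. The widest gap was again in Trib3, whose R6/2 effect in cortex was -0.20 ± 0.33 in females and -1.16 ± 0.38 in males on the log2 scale. The difference of 0.96 ± 0.50 did not pass (adjusted p = 0.81). In striatum the R6/2 effect on Trib3 was -1.50 ± 0.28 in females and -1.34 ± 0.31 in males. The inhibitor effect on Trib3 in cortex was 0.20 ± 0.33 in females and 1.03 ± 0.38 in males. For Asns the cortical inhibitor effect was -0.15 ± 0.11 in females and 0.18 ± 0.12 in males. In the sex test of the cortical inhibitor effect 1 of the 10 members had an unadjusted p under 0.05 by edgeR, and the lowest adjusted p of the members was 0.37.

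The wider pathway was described with 107 further genes in 10 lists, 104 of them tested. In striatum 37 were higher and 17 lower in vehicle R6/2, 51.9% of those tested, and in cortex 31 were higher and 17 lower, 46.2%. Over all genes the shares were 50.2% and 44.1%. On log2(FPKM + 0.1) the calls were 57 higher and 12 lower in striatum and 52 higher and 13 lower in cortex, with the median of all genes shifted by 0.12 and 0.08, and the list medians were 0.16 and 0.14. With the library tag as a covariate 35 were higher and 14 lower in striatum and 20 higher and 15 lower in cortex, where tRNA synthetase calls went to 2 higher and 2 lower and those of the XBP1 and ATF6 list to 2 higher and 1 lower. No listed gene was called between treated and vehicle R6/2 in either tissue by edgeR.

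**Figure D5:**
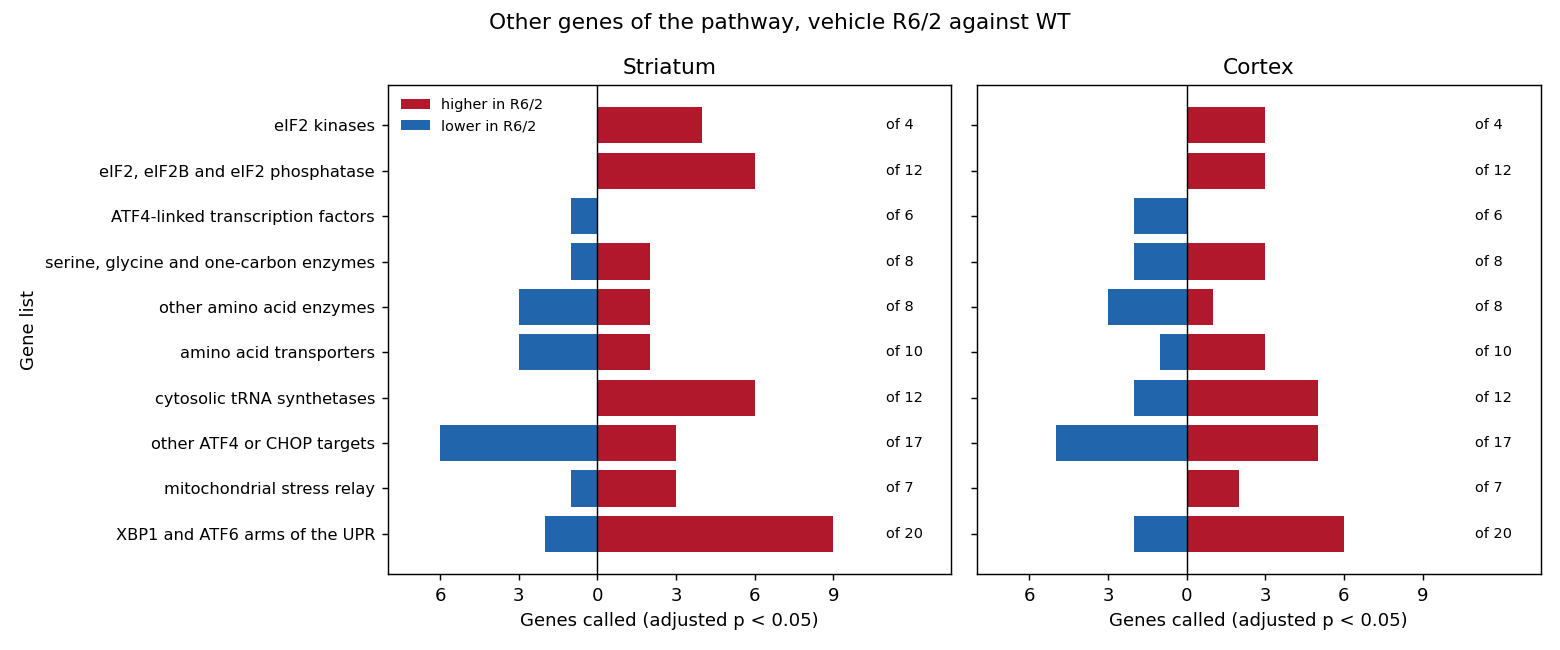
Number of genes called higher (right) or lower (left) in vehicle R6/2 than in WT for each pathway list in striatum and cortex, with the number tested at the right. All 4 eIF2 kinase genes are higher in striatum, and the ATF4 or CHOP target list has calls in both directions.

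At the top of the pathway, the 4 eIF2 kinase genes were all higher in vehicle R6/2 striatum, with a median log2 fold change of 0.35, and 3 of the 4 were higher in cortex, with a median of 0.18. Eif2ak2, the kinase PKR, which is activated by double-stranded RNA and is an interferon-responsive gene, rose by 0.89 ± 0.12 in striatum (adjusted p = 1.7e-06) and by 0.95 ± 0.11 in cortex (adjusted p = 3.4e-07). Its level was 5.31 to 11.6 CPM in WT striatum and 11.8 to 15.5 CPM in vehicle R6/2 striatum, without overlap. Eif2ak4, the kinase GCN2, which senses uncharged tRNA, rose by 0.38 ± 0.07 in striatum, and Eif2ak1, the haem-regulated kinase, rose by 0.24 ± 0.05 in cortex. Of 12 genes for eIF2, its exchange factor eIF2B and the eIF2 phosphatases, 6 were higher in striatum and 3 in cortex, none lower, where 25.8% and 21.5% of all genes were higher. On log2(FPKM + 0.1) 9 were higher in striatum and 8 in cortex, with the shift of all genes given above. Eif2s2, the beta subunit of eIF2, rose by 0.21 ± 0.03 and 0.25 ± 0.05. These are mRNA levels, and phosphorylation of eIF2 was not measured.

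The ATF4-linked transcription factors had no higher gene and 1 lower gene of 6 tested in striatum and 2 lower in cortex. Shares over all genes were 25.8% higher and 24.5% lower in striatum, and 21.5% higher and 22.6% lower in cortex. Beside these, the list counts in this paragraph are given as a description only. The absence of a higher gene depended on the scaling, since log2(FPKM + 0.1) gave 1 higher and 1 lower in striatum and 2 higher and 2 lower in cortex, and DESeq2's size factors gave 1 higher and 2 lower in cortex. Nupr1, a stress-induced chromatin regulator, fell by 1.56 ± 0.18 in striatum (adjusted p = 2.9e-07), from 3.83 to 9.16 CPM in WT to 1.41 to 2.25 CPM in vehicle R6/2, and by 1.02 ± 0.19 in cortex. Jdp2, a repressor that pairs with other leucine zipper factors, fell by 0.94 ± 0.09 in cortex, and its R6/2 effect was 0.89 ± 0.14 higher in striatum than in cortex (adjusted p = 5.9e-05). Among other ATF4 or CHOP targets 3 rose and 6 fell of 17 in striatum, and 5 rose and 5 fell in cortex, with medians of -0.11 and -0.05 that turned to 0.03 and 0.04 on log2(FPKM + 0.1), below the shift of all genes. Xpot, the tRNA exporter, rose by 0.47 ± 0.03 in striatum (adjusted p = 2.9e-10) and 0.39 ± 0.04 in cortex. Trib1, a relative of Trib3, fell by 0.61 ± 0.17 in striatum and 1.41 ± 0.19 in cortex, and its R6/2 effect differed by 0.72 ± 0.16 between them (adjusted p = 0.0022). Bbc3, which encodes the cell death protein PUMA, fell by 0.62 ± 0.16 in striatum, a call lost on log2(FPKM + 0.1) (adjusted p = 0.0670), and Eif4ebp1, a repressor of cap-dependent translation, fell by 0.77 ± 0.13 in cortex.

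The serine, glycine and one-carbon list, which holds the partners of Phgdh, Psat1 and Mthfd2, had 2 higher and 1 lower of 8 in striatum and 3 higher and 2 lower in cortex. Of all genes 25.8% were higher and 24.5% lower in striatum, and 21.5% higher and 22.6% lower in cortex. The counts of the 8-gene lists in this paragraph are a description only. With the library tag as a covariate the serine, glycine and one-carbon list had 2 higher and 0 lower in striatum and 1 higher and 3 lower in cortex. Shmt2, the mitochondrial enzyme that passes a one-carbon unit from serine to folate, just before the step of MTHFD2, rose by 0.44 ± 0.06 in striatum, from 18.9 to 25.4 CPM in WT to 26.7 to 29.5 CPM in vehicle R6/2, and by 0.27 ± 0.07 in cortex, where the call was lost with the library tag as a covariate (adjusted p = 0.0595). Slc25a32, the mitochondrial folate carrier, rose by 0.37 ± 0.06 in striatum. Aldh1l2, a mitochondrial folate enzyme, fell by 0.39 ± 0.14 in striatum, a call lost with that covariate (adjusted p = 0.11) and on log2(FPKM + 0.1) (adjusted p = 0.18), and by 0.57 ± 0.12 in cortex. Mthfd1l, a further mitochondrial folate enzyme, fell by 0.36 ± 0.10 in cortex, and its R6/2 effect was 0.40 ± 0.10 higher in striatum (adjusted p = 0.0062). Of 8 other amino acid enzymes 2 rose and 3 fell in striatum and 1 rose and 3 fell in cortex. Aldh18a1, which starts proline synthesis from glutamate, rose by 0.32 ± 0.04 and 0.37 ± 0.07, while Pycr1, which ends it, fell by 0.83 ± 0.14 in striatum, more than in cortex by 0.53 ± 0.17 (adjusted p = 0.0379).

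Amino acid transporters were mixed, with 2 higher and 3 lower of 10 in striatum and 3 higher and 1 lower in cortex. For this list and those that follow, the shares over all genes were 25.8% higher and 24.5% lower in striatum. In cortex they were 21.5% higher and 22.6% lower. Slc38a1, a neutral amino acid transporter, rose by 0.31 ± 0.09 and 0.35 ± 0.06, and Slc7a11, the cystine and glutamate exchanger, fell by 0.43 ± 0.12 in striatum. Cytosolic tRNA synthetases had 6 of 12 higher and none lower in striatum, with a median of 0.13, and 5 higher and 2 lower in cortex. Wars rose by 0.31 ± 0.06 in striatum and 0.25 ± 0.07 in cortex, and Aars by 0.27 ± 0.04 in striatum, whereas Mars, which overlaps Ddit3, fell by 0.16 ± 0.04 in cortex. The list of the mitochondrial relay, in which the protease OMA1 and its substrate DELE1 signal to eIF2, had 3 higher and 1 lower of 7 in striatum, with a median of 0.04, and 2 higher and 0 lower in cortex, with a median of 0.08, where 25.8% and 21.5% of all genes were higher. Oma1 rose by 0.26 ± 0.09 and Dele1 by 0.17 ± 0.04 in striatum. Hspe1, a mitochondrial chaperone, fell by 0.12 ± 0.05 in striatum, a call lost with the library tag as a covariate (adjusted p = 0.11) and on log2(FPKM + 0.1), where its value was 0.00. The XBP1 and ATF6 arms of the unfolded protein response had 9 higher and 2 lower of 20 in striatum and 6 higher and 2 lower in cortex. Hspa5, the chaperone BiP, rose by 0.46 ± 0.08 in striatum, from 194 to 248 CPM in WT to 268 to 402 CPM in vehicle R6/2, and by 0.39 ± 0.07 in cortex, while Atf6 itself fell by 0.55 ± 0.08 and 0.40 ± 0.08.

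Across all 46 libraries, which share tissues, genotypes and tags, the 2 tested genes with the profile most like each member except Sesn2 by Pearson's r of log2 CPM were listed as a description. Chac1 was most like Atf4 (r = 0.907) and Cars (r = 0.905), and Atf4 was most like Sult4a1 (r = 0.933) and Cars (r = 0.931). Psat1 was closest to Nde1 (r = 0.963) and Cd82 (r = 0.945), and Phgdh to 2810468N07Rik and Frmd8 (r = 0.950 for both). Trib3 was closest to Wnk4 (r = 0.898) and Wdr54 (r = 0.893), Asns to Nap1l2 (r = 0.897) and Fbxw11 (r = 0.896), and Ddit3 to Stard10 (r = 0.884) and Fcho1 (r = 0.882). Atf5, with Tmem238 (r = 0.724) and Akt1s1 (r = 0.717), and Mthfd2, with Ccdc14 (r = 0.737) and Mindy1 (r = 0.734), had the loosest matches. Between members, Atf4 and Sesn2 had r = 0.821, Psat1 and Phgdh r = 0.738, Ddit3 and Trib3 r = 0.736, and Sesn2 and Phgdh r = -0.839, all over 46 libraries pooled from both tissues.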

How the data were processed

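Per the labels' protocols, RNA came from frozen tissue by Qiagen miRNeasy and an enriched part of it went into Illumina libraries. The kind of enrichment and the strandedness are not stated. The authors deposited a table of estimated counts and a table of FPKM values for 43346 genes. CASAVA 1.8.2 and the mm10 build are listed, with no role, per the submitters' processing notes. For aligner, quantifier and annotation the sources used here give no name. Of nonzero estimated counts in the deposited table, 33.8% were not whole (tolerance 1e-06), so counts were rounded before testing.

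Each tissue was fitted with edgeR 4.0.16 (R 4.3.3; TMM scaling, filterByExpr, quasi-likelihood test, group and sex as terms), with Benjamini-Hochberg adjustment over all genes tested and a call at an adjusted p under 0.05. Comparisons between tissues had the animal as a block, from animal codes in the labels; deviations of the 2 tissues of 1 mouse correlated at 0.201 to 0.561 over 23 mice. Where a sentence gives a fold change without naming a test, it is this fit. Standard errors are the size of the log2 fold change over the square root of F, and 95% intervals use them with 19 degrees of freedom. CPM values are TMM-scaled over all 46 libraries. FPKM values were tested with limma 3.58.1 on log2(FPKM + 0.1) and log2(FPKM + 1), where folds of low genes are understated, and counts also with DESeq2 1.42.0. The procedure was tested on simulated data in which few genes changed, in both directions. Far more genes were called here between R6/2 and WT, so that test does not reach the scaling. Likeness used log2 CPM with a prior count of 2, and that of Sesn2 is not reported here. Promoter windows came from RefSeq (GRCm38.p6), and exon overlaps and gene spans from GENCODE vM21.

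The members and the gene lists were chosen with earlier results of these data known. Named list genes are, per list and comparison, the called genes with the largest log2 fold change, up to 2 higher and 2 lower, and the text gives a selection of them. Labels number the animals but do not say whether they were housed or processed apart.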

Additional observations from a re-analysis of the deposited data

Results flagged for a closer look

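In 60 groups of libraries, the 10 genes in 6 groups each, 7 held a library far from the rest by Dixon's criterion, where chance gives about 1 in 20. In vehicle R6/2 cortex, replicate 5 had 11.3 CPM of Atf5 against 16.03 to 18.2 CPM in the others, and replicate 4 had 13.4 CPM of Sesn2 against 15.97 to 17.8 CPM and 119 CPM of Psat1 against 141 to 156 CPM. WT striatal replicate 1 had 218 CPM of Psat1 against 165 to 184 CPM and 149 CPM of Phgdh against 98.0 to 118 CPM. Treated striatal replicate 4 had 21.8 CPM of Ddit3 against 19.4 to 20.5 CPM and 1.23 CPM of Trib3 against 0.486 to 0.793 CPM. The R6/2 effect on Trib3 differed between tissues, at -0.79 on the log2 scale, striatum against cortex (adjusted p = 0.0335 in edgeR).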

How the results depend on the processing

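Comparisons within a tissue were recomputed under up to 9 alternatives and leave-one-out fits, comparisons between tissues under 4 alternatives, without leave-one-out, DESeq2's Wald test or the tag, and the sex tests under 2; no called value of the 10 genes changed sign in those run. With DESeq2's size factors all 130 values kept their side of the threshold, and without the sex term all 60 did. The 7 striatal calls between R6/2 and WT held in all of those run, leave-one-out included. In cortex the count of members called between vehicle R6/2 and WT, 2 as reported, was 4 with the DESeq2 Wald test, 1 with no filter on low counts, 5 with limma on log2(FPKM + 0.1) and 5 on log2(FPKM + 1), and from 1 to 4 over the leave-one-out fits. For treated R6/2 against WT in cortex, 2 as reported, it was 4 on either FPKM scale and 3 with the DESeq2 Wald test, which added Atf5; over leave-one-out fits it was 2 to 3. The cause was not tested. The title numbers did not pair the groups, with correlations of -0.181 to 0.116 in striatum and -0.273 to 0.138 in cortex; with them as a replicate block the cortical count was 1, Sesn2 being lost (adjusted p = 0.0665), and the other 59 values kept their side. Trib3 was the 1 member whose R6/2 effect differed between tissues, and the count was 0 with no filter on low counts and 0 with no replicate block for the animal. No fit within shared tags was possible for treated R6/2 against WT in cortex. Depth limits Trib3 most, at 8 to 88 estimated counts per library.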
